A study of Mus musculus with 37 samples.

Results

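The calcium cycling genes of the sarcoplasmic reticulum were described in brown adipose tissue (BAT) of the BXD mice. The set holds 9 genes, chosen by symbol among the 24657 symbols of the array table, and all 9 were found. They are the calcium pumps *Atp2a1*, *Atp2a2* and *Atp2a3*, the pump inhibitors *Sln* and *Pln*, the release channels *Ryr1* and *Ryr2*, and the calcium-binding proteins *Casq1* and *Casq2*. *Ryr1* alone among the 9 had more than 1 probe set, and the one with the highest mean over the BXD strains was used. The question was which of these genes followed the muscle genes *Acta1* and *Ckm* across strains, and which did not.

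The BXD strains are recombinant inbred lines from the parents C57BL/6J and DBA/2J, and each strain carries a fixed mixture of both genomes. BAT was collected from male mice of 35 BXD strains and both parents, all kept on a chow diet (Harlan 2018) for life, 29 weeks old by the labels and fasted overnight. RNA of about 5 mice was pooled per strain and run on 1 Affymetrix MoGene 2.0 array, so a value is a strain mean with no replicate within the strain, and the errors given here are spreads over strains. The animals were perfused before the tissue was frozen.

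Muscle and fat both store calcium in their reticulum. SERCA pumps move calcium from the cytosol into the store, sarcolipin and phospholamban slow the pump, ryanodine receptors let calcium out again, and calsequestrins hold it inside. *Atp2a1* is known as the form of fast skeletal muscle, *Ryr1* and *Casq1* as forms of skeletal muscle, and *Ryr2*, *Pln* and *Casq2* as forms prominent in the heart. *Atp2a2* has a splice form found in nearly all cells, and *Atp2a3* is known from blood and endothelial cells. In beige fat, calcium cycling through SERCA2 and RYR2 is known as a source of heat that does not need UCP1, and sarcolipin uncouples calcium transport from ATP use in muscle.

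The values are in rescaled units, since the authors set the mean of every array to 8 and its standard deviation (SD) to 2. The log base behind the units is not given in the sources used here, so differences are in units and no folds are given. A gene was called above background when its mean over the BXD strains exceeded 7.94, the 95th percentile of 1128 probe sets of olfactory receptors, a level that 47.2% of the 41155 probe sets exceeded. Of the 9 members 8 did, all but *Pln*. Correlations between any pair of the 37 arrays lay between 0.968 and 0.987. Against the label of the tissue, all 8 genes of the brown fat list were above background, and *Ucp1*, the uncoupling protein of brown fat, lay between 14.82 and 15.69 over the BXD strains.

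The muscle genes varied far more than *Ucp1*, with SDs of 0.78 (*Acta1*) and 0.826 (*Ckm*) against 0.228. Of the other brown fat genes, *Elovl3* (SD 1.19) and *Dio2* (0.842) varied more than both, and the rest less. *Acta1*, skeletal muscle actin, lay between 12.05 and 15.31, and *Ckm*, muscle creatine kinase, between 10.80 and 14.26. Both rose and fell together (Pearson's r = 0.989 over 35 strains), and their mean is called the muscle reference. It was lowest in BXD65 at 11.43, had a median of 13.96 and was highest in BXD97 at 14.78. The widest gap between neighbouring strains was 0.438 units, so the strains formed a continuum with a long lower tail and not separate clusters. In a bulk sample, fewer muscle cells and less muscle RNA per cell cannot be told apart.

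The upstream sequences are shown for 4 members, *Atp2a1*, *Casq1* and *Ryr1*, which followed muscle closely, and *Ryr2*, which did not. Whether the sequences have a part in that contrast was not tested. Each is the 250 bases before the start of the gene, 5′ to 3′ on the gene's own strand, from RefSeq on GRCm38.p6, where 7 of the 9 members had an entry. Capitals mark CAGCTG, an E-box of the kind bound by myogenic factors such as MYOD. Other E-box forms are not marked, such as caggtg in the windows of *Casq1* and *Ryr2*. CAGCTG reads the same on both strands and occurs in 13% of the 32851 windows of this length.
Atp2a1 (chr7:126463074-126463323, minus strand): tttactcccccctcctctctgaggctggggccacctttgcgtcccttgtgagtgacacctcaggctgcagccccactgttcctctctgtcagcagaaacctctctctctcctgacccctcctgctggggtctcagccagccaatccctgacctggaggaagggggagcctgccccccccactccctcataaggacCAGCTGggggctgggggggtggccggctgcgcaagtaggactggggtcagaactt
Casq1 (chr1:172219896-172220145, minus strand): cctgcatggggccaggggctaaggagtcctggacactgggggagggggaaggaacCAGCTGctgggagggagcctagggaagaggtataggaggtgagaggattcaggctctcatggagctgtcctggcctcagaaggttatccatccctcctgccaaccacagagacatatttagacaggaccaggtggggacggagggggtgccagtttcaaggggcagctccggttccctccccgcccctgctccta
Ryr1 (chr7:29125152-29125401, minus strand): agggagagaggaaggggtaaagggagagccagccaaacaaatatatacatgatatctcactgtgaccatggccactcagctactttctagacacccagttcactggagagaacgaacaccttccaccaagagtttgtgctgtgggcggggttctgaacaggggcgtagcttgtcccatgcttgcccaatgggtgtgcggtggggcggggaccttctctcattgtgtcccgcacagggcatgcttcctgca
Ryr2 (chr13:12106946-12107195, minus strand): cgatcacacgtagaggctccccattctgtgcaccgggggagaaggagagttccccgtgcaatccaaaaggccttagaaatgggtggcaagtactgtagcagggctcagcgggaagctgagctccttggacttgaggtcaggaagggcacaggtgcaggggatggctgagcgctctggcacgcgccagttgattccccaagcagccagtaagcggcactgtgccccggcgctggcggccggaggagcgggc
Among the 7 members with a window, 2 held CAGCTG, *Atp2a1* at bases -55 to -50 and *Casq1* at bases -195 to -190 from the start, where -1 is the base just before it. *Ckm* held it at -249 to -244 and *Acta1* at -221 to -216. The windows of *Ryr1* and *Ryr2* held none. None of the 7 windows matched the MEF2 pattern used (0.508% of all windows) or held a CArG box (1.47%), both searched on both strands. The *Casq2* window held ttatttttag, a stretch of the MEF2 kind that the pattern did not count, so other forms of the site can be present. *Acta1* held 1 CArG box at -73 to -64, which did not overlap its CAGCTG. A match is only a match of letters.

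Across strains, 6 of the 9 members rose with the muscle reference, 0 fell and 3 did not pass the test. In a limma fit of all 41152 tested probe sets on the muscle reference, with Benjamini-Hochberg adjusted p under 0.05, 1.51% of the probe sets rose and 0.343% fell. The members' median slope was 0.443 units per unit of the muscle reference, against -0.004 over all tested probe sets. At an unadjusted p under 0.05 the same counts were 6 rising and 0 falling. The 6 were *Atp2a1*, *Atp2a2*, *Sln*, *Ryr1*, *Casq1* and *Casq2*. Correlations below were tested with 100000 two-sided permutations, for which 1e-05 is the smallest p possible, 1 relation for each of the 9 members and 7 more with the other references given further on, all p-values unadjusted.

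**Figure D1:**
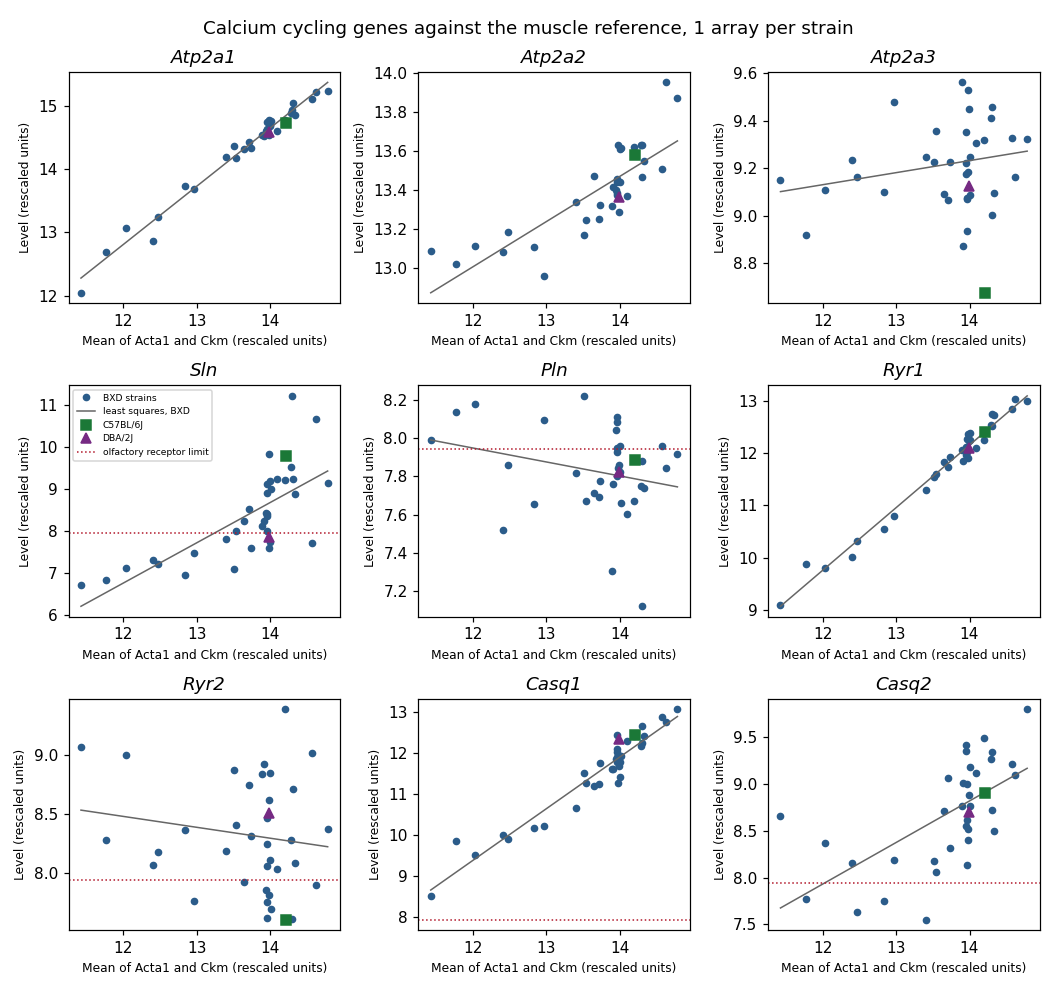
Level of each calcium cycling gene (y, rescaled units) against the mean of *Acta1* and *Ckm* (x, rescaled units), 1 point per BXD strain (35) with the least-squares line; squares and triangles are the parents and the dotted line is the olfactory receptor limit of 7.94. *Atp2a1*, *Ryr1* and *Casq1* lie along the line, *Sln* and *Casq2* scatter around it, and *Atp2a3*, *Pln* and *Ryr2* show little slope.

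The pump of fast muscle, *Atp2a1* (SERCA1), was lowest in BXD65 at 12.05, had a median of 14.61 and was highest in BXD97 at 15.24. The strains at its ends were those at the ends of the muscle reference. C57BL/6J had 14.73 and DBA/2J 14.59, both inside the BXD range. Its r with the muscle reference was 0.989 (95% interval 0.978 to 0.995, permutation p = 1e-05) and Spearman's rho 0.961 (permutation p = 1e-05). Without BXD65 and BXD95, the 2 strains farthest from the median of the reference, r was 0.984. The slope was 0.923 ± 0.026 (SE, n = 35 strains; limma adjusted p = 6.3e-26), and the reference shared 97.8% of its variance. Among 24656 other symbols ranked by r, *Acta1* was number 3 for *Atp2a1* and *Ckm* number 4, after *Ttn* and *Pygm* (both 0.988), the giant sarcomere protein and muscle glycogen phosphorylase.

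*Atp2a2*, the SERCA2 gene of slow muscle, heart and most other cells, followed muscle with a much shallower slope. Its values were 12.96 at the lowest (BXD49), 13.40 at the median and 13.95 at the highest (BXD83), an SD of 0.227 against 0.748 for *Atp2a1*. The parents had 13.58 (C57BL/6J) and 13.36 (DBA/2J). Even where the muscle genes were lowest the transcript stayed high, at 13.09 in BXD65 against 13.87 in BXD97, a difference of 0.785 where that of *Atp2a1* was 3.19. The r was 0.816 (permutation p = 1e-05), rho 0.868 (permutation p = 1e-05) and r without the 2 farthest strains 0.817. The slope was 0.231 ± 0.030 (SE, n = 35 strains; limma adjusted p = 6.06e-07), and 66.6% of the variance was shared with the reference. The genes most like it were *Rpl3l* (0.903), *Art1* (0.898) and *Srl* (0.897), of which *Rpl3l* encodes the ribosomal protein form of striated muscle and *Srl* the reticulum protein sarcalumenin.

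*Atp2a3* (SERCA3) did not pass the test against muscle. It was above background in all 35 strains, with 8.87 at the lowest (BXD92), 9.22 at the median and 9.56 at the highest (BXD80), the narrowest range of the 9 genes at 0.687 units. The slope of 0.051 had a 95% interval of -0.024 to 0.125 (limma adjusted p = 0.689). The r was 0.238 (permutation p = 0.169) and rho 0.196 (permutation p = 0.258). C57BL/6J had 8.68, below all 35 BXD strains, and DBA/2J had 9.12. Its nearest genes by r were *Tnrc18* (0.721), *Gm5914* (0.687) and *Etl4* (0.667), and *Acta1* ranked 3634 among 24656.

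The pumps differed from each other in how far they followed muscle. The difference of *Atp2a1* minus *Atp2a2* rose by 0.692 ± 0.037 units per unit of the muscle reference (SE, n = 35, permutation p = 1e-05). For *Atp2a1* minus *Atp2a3* the slope was 0.872 ± 0.045 (permutation p = 1e-05). *Atp2a2* minus *Atp2a3* had the smallest slope, 0.181 ± 0.048 (permutation p = 0.00069). These are 3 of the 6 pairs compared, and all 6 p-values are given unadjusted.

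Of the pump inhibitors, *Sln*, sarcolipin, had the widest SD of the 9 genes, 1.06 units, wider than that of 99.8% of all probe sets. It was lowest in BXD65 at 6.70, had a median of 8.24 and was highest in BXD56 at 11.21, followed by BXD83 at 10.66. In 22 of 35 strains it exceeded the background limit, and BXD65 and BXD95, the strains lowest in muscle genes, were among those below it. The correlations and the slope given here include these values at background. C57BL/6J had 9.77, higher than 32 BXD strains, and DBA/2J 7.84, below the limit. Its r with muscle was 0.726 (permutation p = 1e-05), rho 0.780 (permutation p = 1e-05) and r without the 2 farthest strains 0.684. The slope of 0.958 ± 0.151 (SE, n = 35 strains; limma adjusted p = 3.01e-05) was close to that of *Atp2a1*, with a residual SD of 0.739 units where that of *Atp2a1* was 0.112. BXD56 lay 2.25 units above its line and BXD69 1.51 below it (residual -1.51).

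*Pln*, phospholamban, the inhibitor known best from heart, was at the background: its mean of 7.83 was under the limit, and 11 of 35 strains exceeded it. The values ran from 7.12 (BXD96) over a median of 7.84 to 8.22 (BXD71), and the parents had 7.89 and 7.82. The slope of -0.073 (95% interval -0.170 to 0.024, limma adjusted p = 0.641), r of -0.254 (permutation p = 0.139) and rho of -0.199 (permutation p = 0.252) did not pass. No change in *Pln* was detectable at this signal. *Sln* minus *Pln* was among the 6 pairs, but with *Pln* at background its slope says little beyond that of *Sln* and is not read as a difference between the inhibitors.

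The release channels had the largest difference in slope of the 6 pairs compared. *Ryr1*, the release channel of skeletal muscle, was lowest in BXD65 at 9.09, had a median of 12.05 and was highest in BXD83 at 13.03, with 12.40 in C57BL/6J and 12.10 in DBA/2J. The r was 0.988 (permutation p = 1e-05), rho 0.958 (permutation p = 1e-05) and r without the 2 farthest strains 0.987. Its slope was steeper than 1, at 1.20 ± 0.033 (SE, n = 35 strains; limma adjusted p = 3.1e-26), and 97.7% of its variance was shared with the reference. The nearest genes were *Ttn* (0.995), *Neb* (0.994) and *Myot* (0.993), all of the sarcomere. The second *Ryr1* probe set, with a mean of 8.75, correlated with the first at 0.799 and with the muscle reference at 0.769.

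*Ryr2*, the release channel of heart, did not follow muscle. Its values were 7.61 at the lowest (BXD56), 8.28 at the median and 9.39 at the highest (BXD61), and 26 of 35 strains exceeded the background limit. BXD65, the strain lowest in muscle genes, had 9.07, the second highest level, where BXD97, the highest in muscle genes, had 8.38. The slope was -0.092 (95% interval -0.288 to 0.103, limma adjusted p = 0.816), with r of -0.158 (permutation p = 0.368) and rho of -0.143 (permutation p = 0.412). C57BL/6J had 7.60, under the limit and level with the lowest BXD strain, and DBA/2J 8.51. *Ryr1* minus *Ryr2* rose by 1.29 ± 0.111 per unit of the muscle reference (SE, n = 35, permutation p = 1e-05). The genes most like *Ryr2* were *Bmp2k* (0.831), *Pcolce* (0.803) and *Npr3* (0.797), and *Acta1* ranked 18697 among 24656.

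*Casq1*, a calsequestrin of skeletal muscle, had the highest slope of the 9 genes, though its interval overlapped that of *Ryr1*. It was lowest in BXD65 at 8.52, had a median of 11.75 and was highest in BXD97 at 13.06, a range of 4.54 units. The parents had 12.44 (C57BL/6J) and 12.34 (DBA/2J), in the upper part of that range. The slope was 1.26 ± 0.061 (SE, n = 35 strains; limma adjusted p = 1.03e-18), with r of 0.961 (permutation p = 1e-05), rho of 0.909 (permutation p = 1e-05) and r of 0.957 without the 2 farthest strains. *Pvalb* (0.973), *Ppp1r3a* (0.971) and *Tmod4* (0.968) were most like it, of which *Pvalb* is parvalbumin, the calcium buffer of fast fibres.

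*Casq2*, the calsequestrin of heart and slow muscle, followed less closely. Its values were 7.55 at the lowest (BXD70), 8.71 at the median and 9.79 at the highest (BXD97), with 31 of 35 strains above the limit, and the parents had 8.90 and 8.70. The slope was 0.443 ± 0.092 (SE, n = 35 strains; limma adjusted p = 0.00234), r was 0.628 (permutation p = 4e-05), rho 0.681 (permutation p = 2e-05) and r without the 2 farthest strains 0.695. The reference shared 39.5% of its variance. BXD65 lay 0.983 units above the line and BXD70 below it with a residual of -1.003. *Synpo2* (0.850), *Pkia* (0.840) and *Itgb6* (0.836) were most like it. *Casq1* minus *Casq2* rose by 0.815 ± 0.103 per unit of the muscle reference (SE, n = 35, permutation p = 1e-05).

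**Figure D2:**
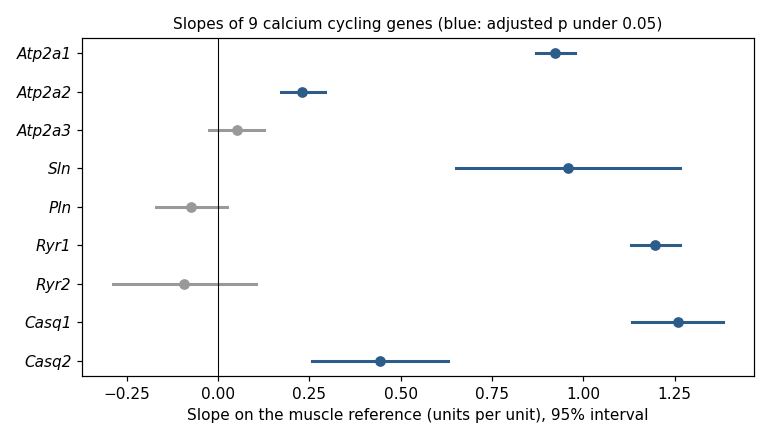
Slope of each gene on the muscle reference (x, units per unit) with its 95% interval over 35 BXD strains; blue marks a limma adjusted p under 0.05. *Casq1* (1.26), *Ryr1* (1.20), *Sln* (0.958) and *Atp2a1* (0.923) lie to the right, *Casq2* (0.443) and *Atp2a2* (0.231) between, and the intervals of *Atp2a3*, *Pln* and *Ryr2* include 0.

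Among themselves the members showed the same order. *Atp2a1*, *Ryr1* and *Casq1* correlated at 0.95 to 0.98 with each other. *Atp2a2* correlated with *Sln* at 0.80 and *Sln* with *Ryr2* at -0.42. These values describe 35 arrays that all genes share, and the arrays also share their RNA preparation and rescaling. Toward *Ucp1*, the r was negative for the 6 that followed muscle, from -0.474 for *Casq2* to -0.285 for *Atp2a2*, and 0.274 for *Ryr2*.

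**Figure D3:**
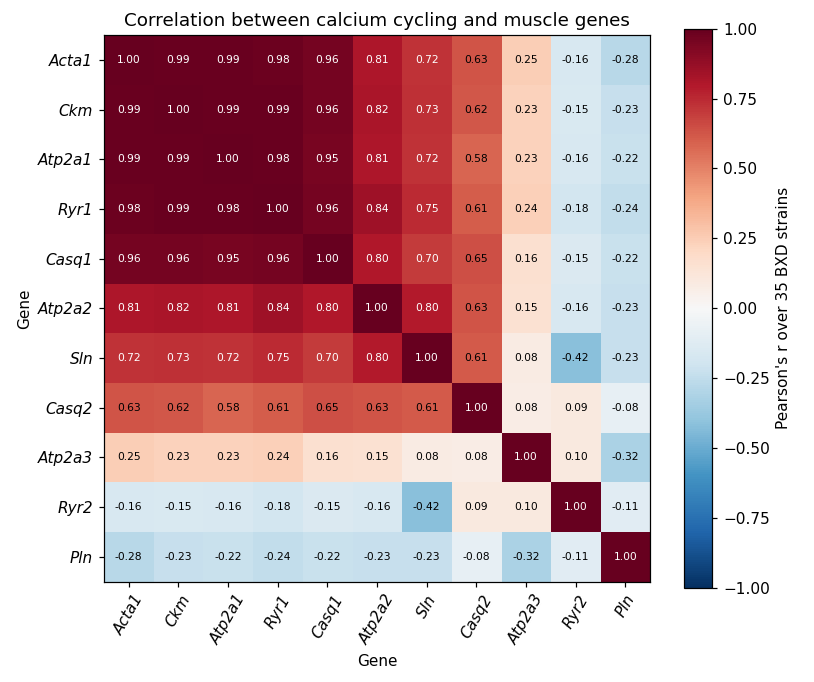
Pearson's r over 35 BXD strains between the 9 calcium cycling genes and the muscle genes *Acta1* and *Ckm* (both axes list genes, colour gives r). *Atp2a1*, *Ryr1* and *Casq1* form the block of highest r with *Acta1* and *Ckm*, and *Atp2a3*, *Ryr2* and *Pln* the pale rows.

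Whether any member moved with the fat was asked with the mean of 8 brown fat genes (*Ucp1*, *Cidea*, *Elovl3*, *Dio2*, *Prdm16*, *Kcnk3*, *Ebf2* and *Otop1*) beside the muscle reference in the same limma fit. The genes were not scaled, so those with the widest SD, *Elovl3* (1.19) and *Dio2* (0.842), weighed most in the mean, against 0.108 for *Cidea*. None of the 9 members rose with it at adjusted p under 0.05, and 0 did at an unadjusted p under 0.05, where 1.05% of all tested probe sets rose and 1.04% fell. The 1 that fell was *Casq2*, by 0.828 ± 0.228 units per unit of the brown fat mean (SE, n = 35 strains; limma adjusted p = 0.045), and its r with that mean was -0.588 (permutation p = 0.00017; rho -0.549, permutation p = 0.00072; r = -0.506 without the 2 strains farthest from its median). The adjusted p of *Casq2* lost the threshold without any 1 of 15 single strains (BXD45, BXD48, BXD50, BXD55, BXD62, BXD66, BXD70, BXD75, BXD79, BXD84, BXD85, BXD87, BXD90, BXD97 or BXD103), and it was 0.113 without BXD70, the strain lowest in *Casq2*. BXD70 was also the strain with the highest mean of 6 liver genes (12.59), and the part of that in the result was not tested. For the transcripts that did not follow muscle, the slopes on the brown fat mean were -0.075 for *Atp2a3* (95% interval -0.290 to 0.141), 0.007 for *Pln* (-0.275 to 0.289) and -0.536 for *Ryr2* (-1.08 to 0.005). None of these 3 intervals excluded 0, which does not show that the transcripts were unrelated to the fat. Their direction also depended on the setting. Over the alternatives other than single strains left out, the slope of *Ryr2* ran from -0.665 to 0.513 (lowest limma adjusted p = 0.203). That of *Atp2a3* ran from -0.14 to 0.119 and that of *Pln* from -0.113 to 0.026. Some alternatives used a reference on another scale (*Ucp1* alone, or each gene scaled to the same SD), so these slopes do not all share a unit.

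The fibre type of the muscle signal was asked with the mean of 8 slow fibre genes (*Myh7*, *Tnnt1*, *Tnni1*, *Tnnc1*, *Myl2*, *Myl3*, *Myoz2* and *Csrp3*) beside the muscle reference, where 0.0875% of the tested probe sets rose and 0.00486% fell. The slow fibre mean ran from 8.13 in BXD85 to 10.97 in BXD83 and correlated with the muscle reference at 0.928. Of the 9 members, 1 rose and 0 fell, with 4 rising at an unadjusted p under 0.05. The 1 was *Sln*, with a slope of 1.63 ± 0.296 (SE, n = 35 strains; limma adjusted p = 0.00901). Its r with the slow fibre mean was 0.848 (permutation p = 1e-05), rho 0.895 (permutation p = 1e-05) and r without BXD85 and BXD65 0.835, and the gene most like it was *Tnnt1* (0.868), slow troponin T, itself on the list, followed by *Smpx* (0.864) and *Myom3* (0.863). With the 20 skeletal muscle genes as the muscle reference, the slope of *Sln* was 1.60 and the adjusted p 0.179. *Casq2* had a slope of 0.797 ± 0.206 (limma adjusted p = 0.229) and passed without BXD69 alone (0.968, adjusted p = 0.0453). The r of *Casq2* with the slow fibre mean was 0.742 (permutation p = 1e-05, rho 0.755, 0.819 without BXD85 and BXD65). *Atp2a2* had a slope of 0.212 ± 0.072 (limma adjusted p = 0.643), though its r with the slow fibre mean, 0.863 (permutation p = 1e-05, rho 0.847, 0.857 without the same strains), was higher than that of *Sln*. The slope of *Sln* was not tested against those of the others. *Atp2a1* had a slope of -0.065 (95% interval -0.206 to 0.075).

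After *Ryr2* was seen not to follow muscle, the mean of 8 endothelial genes (*Pecam1*, *Cdh5*, *Kdr*, *Tek*, *Emcn*, *Flt1*, *Esam* and *Egfl7*) was put beside the muscle reference, a choice made with the values known. In this fit 1.77% of the tested probe sets rose and 1.82% fell. The endothelial mean ranged from 11.22 in BXD56 to 11.97 in BXD85, and BXD56 was also the strain lowest in *Ryr2*. *Ryr2* rose by 2.26 ± 0.407 units per unit of that mean (SE, n = 35 strains; limma adjusted p = 0.00124), with r of 0.695 (permutation p = 1e-05), rho of 0.680 (permutation p = 2e-05) and r of 0.645 without BXD56 and BXD85. Without BXD61, the strain highest in *Ryr2*, the slope was 2.03 (adjusted p = 0.00376). *Atp2a3* had a slope of 0.608 ± 0.185 (limma adjusted p = 0.0573), which passed with both parents included (0.701, adjusted p = 0.0327), with dim probe sets left out (adjusted p = 0.0267) and without any 1 of 6 single strains, BXD55, BXD75, BXD85, BXD87, BXD92 or BXD99. *Sln* had -1.93 ± 0.806 (limma adjusted p = 0.207). Of the 9 members, 1 rose and 0 fell.

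**Figure D4:**
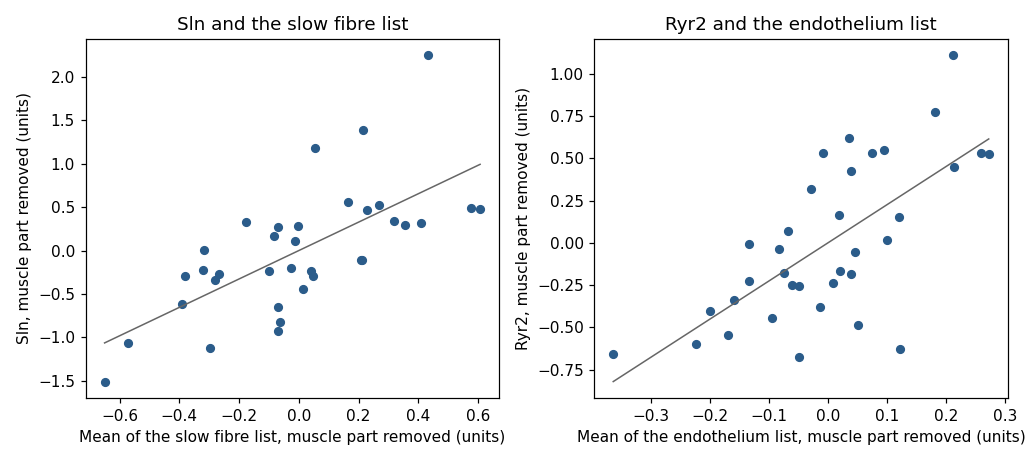
Left, *Sln* against the mean of 8 slow fibre genes; right, *Ryr2* against the mean of 8 endothelial genes, both axes in rescaled units after the part that follows the muscle reference was removed, 1 point per BXD strain (35) with the least-squares line. *Sln* rises with the slow fibre mean (slope 1.63) with BXD56 highest, and *Ryr2* with the endothelial mean (slope 2.26) with BXD61 highest.

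Other cell types that the pool could hold were read from marker lists. All 20 skeletal muscle genes and all 8 slow fibre genes rose with the muscle reference, and 0 of 8 heart genes did. The heart mean ranged from 7.61 to 8.04, with 5 of 8 genes above background. *Myh6* (mean 7.30) and *Myl7* (6.60) exceeded the limit in 0 of 35 strains and *Mybpc3* in 7. The other heart genes did so in 21 (*Tnni3*), 24 (*Myl4*), 25 (*Nppb*), 33 (*Nppa*) and 33 (*Tnnt2*). The part of heart cells in the levels of *Ryr2*, *Pln* and *Casq2*, known from heart, was not tested. Of 8 smooth muscle genes, 2 rose with muscle (*Synpo2*, slope 0.373, and *Lmod1*, 0.154), and *Synpo2* was also the gene most like *Casq2*. In the endothelial fit, in which *Ryr2* rose, 2 other smooth muscle genes rose, *Smtn* (slope 0.978) and *Acta2* (1.01). In the same fit 1 of 6 adipocyte genes rose, *Lep*, leptin (5.24 ± 0.983, SE; limma adjusted p = 0.00168), and 1 of 8 lymphocyte genes, *Ptprc*, the leukocyte antigen CD45 (2.01 ± 0.424; limma adjusted p = 0.00457). There 1 of 8 brown fat genes fell, *Kcnk3* (slope -1.46, limma adjusted p = 0.00781), and 1 of 20 skeletal muscle genes, *Des* (-0.546, limma adjusted p = 0.0249). The part of these cell types in the result for *Ryr2* was not tested. The mean of the smooth muscle list ranged from 9.41 to 9.93, and its part in the level of *Casq2* and *Ryr2* was not tested. None of the 8 brown fat, 6 adipocyte, 8 endothelial, 8 lymphocyte, 4 platelet or 6 liver genes rose or fell with muscle.

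Other genes of calcium handling were counted by role, with no test between roles. Of 55 listed, 53 were found and 44 were above background, and in the same fit 21 rose, 0 fell and 32 did not pass, with a median slope of 0.049. The triad and voltage coupling genes held most of those that rose, 14 of 17, among them *Trdn* (1.30 ± 0.048, SE), triadin, *Tmem38a* (1.09 ± 0.038), a potassium channel of the reticulum, and *Cacna1s* (0.954 ± 0.044), the voltage sensor that opens *Ryr1*. The 3 that did not pass were *Ryr3* and *Fkbp1b*, both below background in all 35 strains, and *Fkbp1a*, the widely expressed partner of ryanodine receptors (slope -0.020). *Mrln*, the myoregulin gene listed under an older symbol, rose by 0.399 ± 0.048 with a mean of 7.84, below the limit. The 2 other micropeptides of the list, *Strit1* and *Erln*, were not matched.

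Outside the triad, *Pvalb* was the 1 of 5 cytosolic binding proteins that rose (1.10 ± 0.036). Of 9 other pumps and exchangers, 2 rose, *Slc8a3* (0.525 ± 0.052) and *Slc8a1* (0.177 ± 0.040), the second below background. Of 4 CaM kinase II genes 3 rose, *Camk2a* (0.291 ± 0.059), *Camk2b* (0.202 ± 0.054) and *Camk2g* (0.173 ± 0.032), all SE over 35 strains. None of 5 store-operated entry genes, 3 IP3 receptors, 3 chaperones of the endoplasmic reticulum or 6 mitochondrial uptake genes passed, and *Stim1* came nearest (0.122 ± 0.034, limma adjusted p = 0.0526). In the fit with the brown fat mean, where no member rose, the IP3 receptor gene *Itpr2* fell by 0.430 (limma adjusted p = 0.0259). In the endothelial fit, where *Ryr2* rose, *Stim2*, a calcium sensor of the reticulum, rose (0.917, limma adjusted p = 0.000968) and the entry channel gene *Orai3* fell by 0.979 (limma adjusted p = 0.013).

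**Figure D5:**
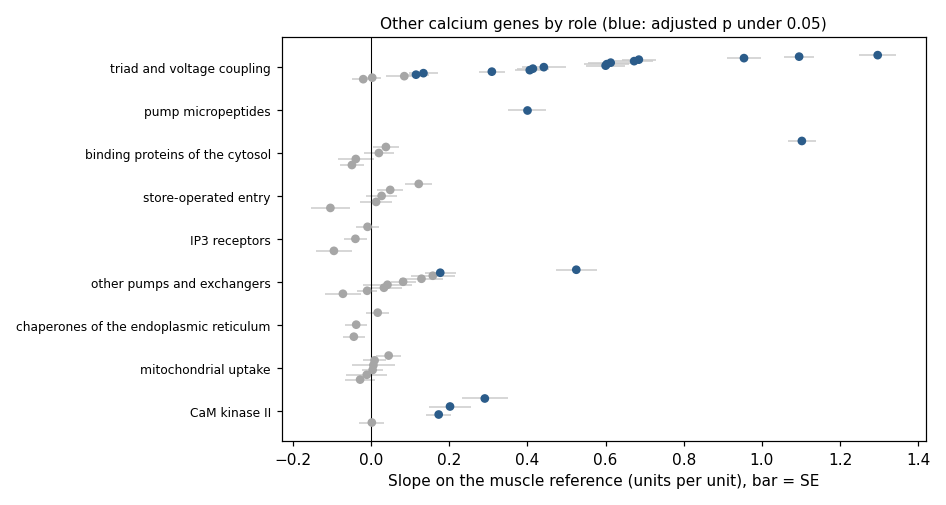
Slopes on the muscle reference (x, units per unit) of the 53 calcium genes outside the set, 1 point per gene with its SE over 35 BXD strains, grouped by role on the y axis; blue marks a limma adjusted p under 0.05. The triad genes extend to 1.30, while chaperones, IP3 receptors, store-operated entry and mitochondrial uptake stay near 0.

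Between the parents, which have 1 array each and hence no test, DBA/2J minus C57BL/6J passed 0.770 units, the 95th percentile over all probe sets in either direction, in 2 of the 9 members, where 5.00% of all probe sets did. *Sln* was lower in DBA/2J (difference -1.93 units), and *Ryr2* was higher in DBA/2J by 0.907. The next was *Atp2a3*, higher in DBA/2J by 0.450. The other 6 differed by 0.301 units or less, and the median over all probe sets was 0.182. *Sln* fell below the limit in DBA/2J and *Ryr2* in C57BL/6J, so both differences are against a value at background.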

How the data were processed

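Brown adipose tissue of 35 BXD strains and both parents was measured on Affymetrix MoGene 2.0 arrays, 1 per strain, with 100 ng of pooled RNA amplified and 5500 ng of cDNA labelled. The authors deposited 1 table of scores, values of 41345 probe sets with the mean of each array set to 8 and its SD to 2. The submitters' processing notes name Affymetrix Expression Console, and the summary method and log base are not given in the sources used here. Rescaling to a fixed SD can stretch or shrink an array. Of the probe sets, 190 array controls were left out.

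Columns were assigned by strain name, and every column was used. Members and gene lists were chosen with earlier results of these data known, and the endothelial fit was added after the values of *Ryr2* had been seen. Each reference is the mean of its genes' brightest probe sets. Slopes came from limma 3.58.1 (lmFit, eBayes) in R 4.3.3 over all probe sets other than those of the references, for the 35 BXD arrays, with Benjamini-Hochberg adjustment at 0.05. The fit on the muscle reference alone was first tested on simulated data with known slopes and independent noise for each probe set. Fits with a second reference were not simulated. Correlations and slopes of pair differences used 100000 two-sided permutations in numpy 2.4.6 and scipy 1.17.1. Named beside the members are the 3 genes with the highest r for each, and up to 3 called genes per calcium role with the largest slope, while other calcium and marker genes were named after their values were seen. How strains were spread over array batches is not given in the sources used here, and strains are not replicates of 1 genotype. Precision is limited by the number of arrays and by the background. A call of 1 listed calcium gene is not reported here by name, and the counts per role include the gene.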

Additional observations from a re-analysis of the deposited data

How the results depend on the processing

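The count of 6 members rising with muscle and 0 falling was the same under every alternative, which covered both parents, quantile normalization, centring, other muscle references, ranks, BXD65 and BXD95 or BXD70 left out, other probe set and dim filters, an adjusted p of 0.01 and the first principal component, and without each single strain. The slopes of the 6 pair differences also kept direction and threshold. Against a stricter background limit of 8.82, the 99th percentile of olfactory receptor probe sets, 5 of 9 members were above background, not 8. The share of all probe sets above 8.82 was not counted. The fall of *Casq2* with brown fat was not called (0 members) under quantile normalization (slope -0.797, adjusted p = 0.068), without BXD65 and BXD95 (-0.747, 0.0522), without BXD70 (-0.701, 0.113), at an adjusted p of 0.01, or with *Ucp1* alone as the reference (-0.700, 0.286), and without single strains the count ran from 0 to 1, with slopes of -0.898 to -0.701. For slow fibres, 0 members rose with the skeletal muscle list as the muscle reference, and 6 rose without muscle in the fit, where the slope of *Atp2a1* turned from -0.065 to 0.833, the 2 references being correlated at 0.928. Without single strains 1 to 2 rose. In the endothelial fit 2 rose with both parents or without dim probe sets, and 1 to 2 without single strains. The share of all probe sets called was counted only for the fits described under Results, not for these alternatives. The other causes were not tested. Of 491 slopes of single members under the alternatives other than each strain left out in turn, 478 kept their direction where called and their side of the threshold. No paired analysis was possible because each strain has 1 array and strain numbers pair no samples. With 1 array per strain, array error and strain differences cannot be told apart, and *Pln*, *Sln* in 13 strains and *Ryr2* in 9 strains were at or below the background limit.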
